A study of Mus musculus with 12 samples.

Results

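10 liver genes of nitrogen metabolism whose expression is known to differ along the lobule were taken by name. The 4 pericentral genes were Glul, Oat, Slc1a2 and Slc1a4, and the 6 periportal genes were Gls2, Hal, Sds, Cps1, Ass1 and Arg1. All probe sets whose platform annotation gives a single one of these symbols were taken, which gave 10 probe sets for 7 of the 10 genes, out of 12393 genes named on the array. Glul had 2 probe sets, Slc1a4 had 3, and Oat, Slc1a2, Hal, Cps1 and Arg1 had 1 each. The probe set annotated to Ass1 also carries a second gene symbol, and Gls2 and Sds are not among the symbols listed, so these 3 periportal genes are not analysed here. All 7 measured genes passed the filter on low values that left 8469 genes for testing.

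Liver RNA from 12 adult male C57BL6/J mice, 8 weeks old, was hybridised to Affymetrix arrays, 1 liver per array, in 4 groups of 3. Mice labelled wildtype (written wild-type here) and mice labelled txnrd1 liver-null each received either saline or acetaminophen (APAP). APAP was injected into the peritoneum at 100 mg/kg, and livers were collected 8 hours after either injection. In liver-null mice a conditional allele of Txnrd1, which encodes cytosolic thioredoxin reductase, is disrupted by albCre, a Cre recombinase driven by the albumin promoter and therefore active in hepatocytes. The labels carry 1 growth protocol for all 12 samples, and whether wild-type mice also bore the conditional allele or albCre is not given in the sources used here. Numbers after a group name are those at the end of the sample titles.

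Blood enters the liver lobule at the portal field and leaves at the central vein, and hepatocytes along this path divide the handling of nitrogen. Periportal hepatocytes break down amino acids and turn the released ammonia into urea. A thin layer of hepatocytes around the central vein takes up glutamate and the ammonia that escapes and makes glutamine, under the control of Wnt signals from the central vein. APAP is oxidised to its reactive product mainly in pericentral hepatocytes, which is where its injury begins. RNA of whole liver holds no position, so pericentral and periportal below name where a gene is known to be expressed, not where it was measured. Fewer cells of a type and less RNA per cell cannot be told apart in such RNA.

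The promoter sequences of RefSeq, build GRCm38.p6, matched 5 of the 7 measured genes: Glul, Oat, Slc1a2, Slc1a4 and Hal. The 250 bases before the start are printed, 5′ to 3′ on the strand of the gene, for Hal, which had the largest difference between genotypes among the 7 genes, and for Glul and Oat, the highly expressed pericentral enzymes it is set against. Hal lies at chr10:93488518-93488767 on the plus strand, Glul at chr1:153899679-153899928 on the plus strand, and Oat at chr7:132576399-132576648 on the minus strand. Capitals mark exact matches, on either strand, to any of 5 motifs: CTTTGA (the core bound by TCF and LEF, the DNA-binding partners of beta-catenin in Wnt signalling), TGACG (the core of the cAMP response element), CCAAT (the box of that name), TATAAA (the TATA box), and the core of the antioxidant response element, TGACNNNGC, which can overlap the cAMP core.
Hal: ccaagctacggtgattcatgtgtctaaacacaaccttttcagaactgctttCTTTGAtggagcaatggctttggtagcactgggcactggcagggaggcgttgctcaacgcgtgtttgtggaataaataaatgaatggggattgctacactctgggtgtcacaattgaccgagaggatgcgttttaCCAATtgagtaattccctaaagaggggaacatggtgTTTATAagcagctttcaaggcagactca
Glul: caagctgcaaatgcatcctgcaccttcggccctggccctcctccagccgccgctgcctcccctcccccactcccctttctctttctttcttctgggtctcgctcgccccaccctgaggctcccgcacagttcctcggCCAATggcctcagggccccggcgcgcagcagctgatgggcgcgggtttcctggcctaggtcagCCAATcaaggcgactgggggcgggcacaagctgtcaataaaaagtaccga
Oat: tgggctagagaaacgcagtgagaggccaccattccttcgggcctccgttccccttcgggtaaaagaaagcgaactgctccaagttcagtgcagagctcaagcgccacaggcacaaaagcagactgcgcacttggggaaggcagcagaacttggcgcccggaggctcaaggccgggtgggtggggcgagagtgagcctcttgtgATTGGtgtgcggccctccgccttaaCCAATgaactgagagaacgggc
Hal held 1 match to CTTTGA, 199 to 194 bases before its start, 1 to CCAAT, 64 to 60 bases before it, and 1 to TATAAA on the opposite strand, 28 to 23 bases before it. Glul and Oat each held 2 matches to CCAAT and none to the other 4 motifs. Of the sequences not printed, Slc1a2 held 2 matches to CTTTGA, and Slc1a4 held 2 to CCAAT and 1 to TGACG. Among all 32851 windows of this length, 13.8% held the TCF and LEF core, 33.8% the CCAAT box, 12.4% the TATA box, 17.8% the cAMP core and 10.2% the antioxidant core. A match says only that these letters are present.

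Values are the deposited log2 expression values, so a difference of 1 is a doubling, and differences were tested with limma over all 8469 genes, with Benjamini-Hochberg adjusted p under 0.05 as the threshold for calling a gene changed. The probe set of Txnrd1 with the highest signal read 9.43 to 9.81 on the 6 wild-type arrays and 10.26 to 10.58 on the 6 arrays labelled liver-null. It was therefore higher where the gene is labelled as disrupted, and where its probes lie relative to the deleted part was not analysed here, so it gives no check of the labels. By their upper quartile the arrays formed a lower set of 4, at 5.49 to 5.58, and an upper set of 8, at 5.73 to 5.85, and no label says what divides them. The lower set took 1 array from each group, those numbered 10, 14, 16 and 17. Hepatocyte markers averaged 12.42 to 12.60 on every array over the 8 of 10 that were annotated. The array wild-type saline 8 stood apart for several of the genes below: it held the highest value of the 12 arrays for Hal and Cps1 and the lowest for Glul and Slc1a2, and it was highest for 6 of 8 lists of cell type markers.

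None of the 7 genes was called changed in any of the 7 comparisons made. In saline, 0 of 7 were called between genotypes, beside 0.638% of all tested genes, and the lowest adjusted p among the 7 was 0.139 by limma. After APAP, 0 of 7 were called between genotypes, beside 0.768%, with a lowest adjusted p of 0.758 by limma, and over both treatments 0 of 7, beside 4.46%, with a lowest adjusted p of 0.168 by limma. For APAP against saline, 0 of 7 were called in wild-type livers, in liver-null livers and over both genotypes, where the share of all tested genes called was 0% as well. The test of whether the response to APAP differed by genotype, the interaction, also called 0 of 7 and 0% of all genes. At an unadjusted p under 0.05 in the same limma fits, Hal alone was counted, in 4 comparisons: genotype in saline (12.2% of all genes), genotype over both treatments (17% of all genes), APAP in wild-type livers (1.69%) and the interaction (1.29%). None of the 7 was counted that way for genotype after APAP (9.02%), APAP in liver-null livers (0.697%) or APAP over both genotypes (1.2%). Where every liver of one group lay beyond every liver of the other is counted too: Hal and Cps1 for genotype in saline (15.2% of all genes), Glul for APAP in wild-type livers (5.02%), Slc1a2 for APAP in liver-null livers (4.89%), and none of the 7 for genotype after APAP (13.9%), genotype over both treatments (4.36%) or APAP over both genotypes (0.0354%). The plot of values by group shows the 12 livers for each gene.

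**Figure D1:**
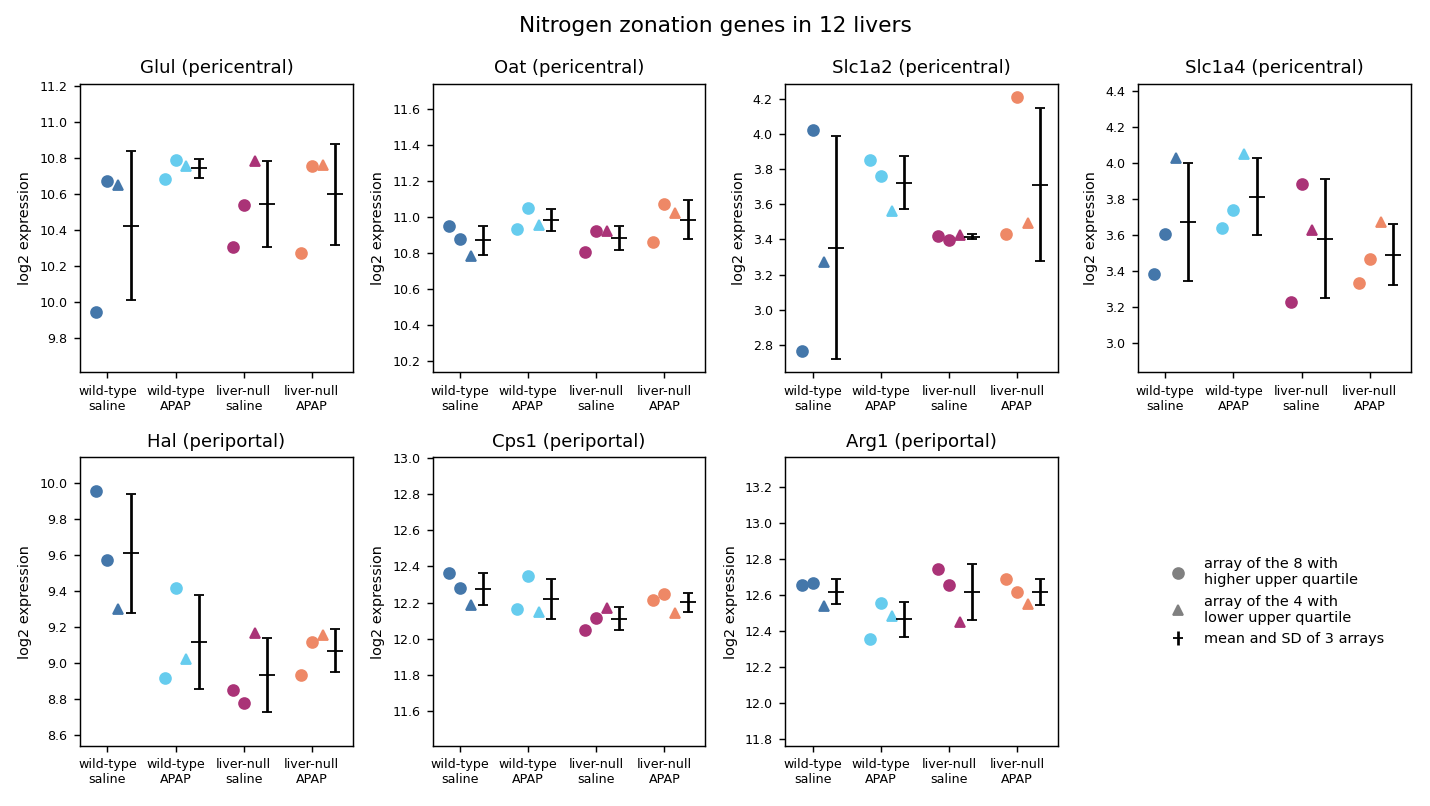
Log2 expression (vertical axis, each panel spanning the same number of log2 units) of the 7 genes in the 4 groups, 1 point per liver, with the mean and SD of 3 arrays as a black bar. Triangles mark the 4 arrays with the lower upper quartile. Hal spans 8.78 to 9.96 with its highest point in wild-type saline, whereas Cps1 spans 12.05 to 12.36 and Oat 10.78 to 11.07.

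Hal encodes histidine ammonia-lyase, the enzyme that releases ammonia from histidine in the first step of its breakdown. Its probe set 1418645_at read 9.96, 9.57 and 9.30 in wild-type saline livers 8, 9 and 10, against 8.85, 8.78 and 9.17 in liver-null saline livers 4, 5 and 16. After APAP it read 8.92, 9.41 and 9.02 in wild-type livers 12, 13 and 14, and 8.93, 9.12 and 9.16 in liver-null livers 2, 3 and 17. All 3 wild-type saline livers lay above all 3 liver-null saline livers, and the other 3 groups overlapped one another. The group means were 9.61 ± 0.33 with saline and 9.12 ± 0.26 with APAP in wild-type livers, and 8.93 ± 0.21 and 9.07 ± 0.12 in the same order in liver-null livers (SD, n = 3 each). In order of level, wild-type saline came first and overlapped the next group, wild-type APAP, and the 3 lower groups lay within each other's spread.

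The difference between genotypes in saline was -0.68 for Hal (SE 0.19, 95% confidence interval -1.09 to -0.27), a 1.60-fold lower level in liver-null livers, with a limma p of 0.0037 and an adjusted p of 0.139. In absolute size it ranked 364 of the 8469 genes. It was -0.95 within the upper array set, with 2 livers per group, and -0.13 within the lower set, with 1 liver per group. The same numbers of livers per group stand behind every value given below for the 2 array sets. Without wild-type saline 8 it was -0.50 with an adjusted p of 0.517 by limma. A fit with estimated array weights (4.63 for wild-type saline 9, 0.363 for wild-type saline 10) called 1323 of the 8469 genes in saline. It was the one alternative of 21 that called Hal there, with a difference of -0.78 and an adjusted p of 0.00256 by limma. With the array set as covariate Hal was not called, with an adjusted p of 0.0783 in saline and 0.107 over both treatments by limma. The covariate fit called 2.87% and 10.4% of all genes in these 2 comparisons. After APAP the genotypes differed by -0.05 (95% interval -0.46 to 0.36). Over both treatments the Hal difference was -0.36 (interval -0.65 to -0.07), with -0.55 in the upper set and 0.00 in the lower set. Array weights again called Hal, at -0.47 with an adjusted p of 0.00868 by limma, in a fit that called 1409 genes.

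APAP against saline gave a Hal difference of -0.49 in wild-type livers (95% interval -0.90 to -0.08), with a limma p of 0.0222 and an adjusted p of 1. Without wild-type saline 8 that difference was -0.32. In liver-null livers the corresponding value was 0.14 (interval -0.27 to 0.54), and the interaction was 0.63 (interval 0.05 to 1.21), with a limma p of 0.0353 and an adjusted p of 0.999. The 2 APAP differences were thus 0.81 apart within the upper array set, 0.27 apart within the lower, and 0.46 apart without wild-type saline 8. Both the saline genotype comparison and the wild-type APAP comparison use the same 3 wild-type saline livers, where Hal was highest.

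Lists of markers of other cells differed in direction between the saline groups. Kupffer and myeloid markers were higher in liver-null livers for 7 of 13 tested (median 0.02) and lymphocyte markers for 4 of 5 (median 0.05), and endothelial markers were lower for 8 of 10 (median -0.15), with 0 called in each by limma and 1, 0 and 1 at an unadjusted p under 0.05. Stellate and fibroblast markers averaged 4.98 to 5.42 in wild-type saline livers, highest in liver 8, against 4.56 to 4.92 in liver-null ones. All 10 of 10 were lower in liver-null livers (median difference -0.45), where 44.8% of all genes were higher (median -0.03). By limma 0 were called, and 5 had an unadjusted p under 0.05 (12.2% of all genes). Of the 10 markers, 1 lay under the array median on all arrays. Between genotypes after APAP all 10 of 10 were also lower in liver-null livers (median -0.15, 0 called). Over both treatments they were lower again (median -0.27), with 1 called, beside 4.46% of all genes. For APAP in wild-type livers all 10 of 10 were lower too, with a median of -0.17 and 0 called (0 at an unadjusted p under 0.05). For APAP in liver-null livers 6 of 10 were higher (median 0.07, 0 called). The 3 annotated erythroid markers averaged 4.36 to 4.65 in wild-type saline livers and 3.98 to 4.22 in liver-null saline livers, with 2 of the 3 under the array median throughout. Of the 2 tested genes in a list of pancreas, fat and muscle markers, the elastase gene Cela1 was called lower in liver-null saline livers, at -1.93 (adjusted p 0.00573 by limma), and the other, the trypsinogen gene Prss2, differed by 0.11 (adjusted p 0.841 by limma). For genotype after APAP and over both treatments 1 of these 2 genes was also called lower, beside 0.768% and 4.46% of all genes. Hepatocyte markers averaged 12.47 to 12.60 in wild-type saline livers and 12.42 to 12.52 in liver-null saline livers. The part of these markers in the Hal values was not tested.

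Cps1 encodes carbamoyl phosphate synthetase, which commits ammonia to the urea cycle in mitochondria. Its probe set 1455540_at read 12.36, 12.28 and 12.19 in wild-type saline livers and 12.16, 12.34 and 12.15 after APAP. In liver-null livers it read 12.05, 12.11 and 12.17 after saline and 12.21, 12.25 and 12.14 after APAP. The 2 saline groups did not overlap, but the gap between them was small: the lowest wild-type liver read 12.19 and the highest liver-null liver 12.17. The difference in saline was -0.17 (95% interval -0.39 to 0.06, limma adjusted p 0.596), with -0.24 in the upper array set and -0.02 in the lower, from 1 liver per group. Its other 6 differences lay between -0.09 and 0.15.

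Arg1 encodes arginase, the last enzyme of the urea cycle, which splits arginine into urea and ornithine. Its probe set 1419549_at averaged 12.62 ± 0.07 with saline and 12.46 ± 0.10 with APAP in wild-type livers, and 12.62 ± 0.15 and 12.62 ± 0.07 in the same order in liver-null livers (SD, n = 3 each). The lowest group, wild-type APAP, read 12.36, 12.55 and 12.48 and overlapped the other 3. Arg1 differed by -0.15 for APAP in wild-type livers (95% interval -0.40 to 0.09) and by 0.15 between genotypes after APAP (interval -0.09 to 0.40), and these 2 values share the wild-type APAP livers.

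Glul encodes glutamine synthetase, which joins ammonia to glutamate in the hepatocytes next to the central vein. Its brighter probe set 1426236_a_at read 9.95, 10.67 and 10.65 in wild-type saline livers and 10.68, 10.79 and 10.75 in wild-type APAP livers. The wild-type saline liver 8 lay far below the other 11, and every wild-type APAP liver lay above every wild-type saline liver, the latter by a margin of 0.01 over liver 9. In liver-null livers it read 10.31, 10.54 and 10.78 after saline and 10.27, 10.76 and 10.76 after APAP, groups that overlapped. The second probe set, 1426235_a_at, read 8.40 in wild-type saline liver 8 and 8.80 to 9.49 in the other 11, so liver 8 was the lowest on both.

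APAP gave a Glul difference of 0.32 in wild-type livers (SE 0.21, 95% interval -0.14 to 0.78, limma adjusted p 1) and 0.34 on the second probe set. Without wild-type saline 8 the Glul difference was 0.08. In liver-null livers APAP gave 0.05 for Glul (interval -0.40 to 0.51) and -0.05 on the second probe set. Between genotypes Glul differed by 0.12 in saline, -0.12 without wild-type saline 8, and by -0.14 after APAP (-0.28 on the second probe set). The order of the 4 group means, from wild-type APAP at 10.74 through liver-null APAP at 10.60 and liver-null saline at 10.54 to wild-type saline at 10.42, held no neighbours that differed beyond their spread.

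Oat encodes ornithine aminotransferase, a mitochondrial enzyme that turns ornithine into a precursor of glutamate and is known to be concentrated in the same pericentral layer as Glul. Its probe set 1416452_at read 10.95, 10.88 and 10.78 in wild-type saline livers and 10.93, 11.05 and 10.96 after APAP. In liver-null livers it read 10.81, 10.92 and 10.92 after saline and 10.86, 11.07 and 11.02 after APAP. The genotypes overlapped under both treatments, with differences of 0.01 in saline (95% interval -0.21 to 0.24) and 0.00 after APAP (-0.22 to 0.23). APAP gave 0.11 in wild-type and 0.10 in liver-null livers, and 0.11 over both (-0.05 to 0.26), and saline and APAP livers overlapped in both genotypes.

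Slc1a2 encodes a high-affinity glutamate transporter and Slc1a4 a transporter of alanine, serine and cysteine. Both read low here, under the upper quartile of the array on all 12 arrays, while the other 5 genes lay above it on all 12, so the values of the 2 transporters say less about fold changes. Slc1a2 (1451627_a_at) read 2.76, 4.02 and 3.27 in wild-type saline livers and 3.85, 3.76 and 3.56 in wild-type APAP livers. It read 3.42, 3.40 and 3.43 in liver-null saline livers and 3.43, 4.21 and 3.49 in liver-null APAP livers. Wild-type saline livers spread from the lowest value of the 12 to the second highest, while the liver-null saline livers lay within 0.03 of each other. The liver-null APAP livers all lay above the liver-null saline livers, 2 of them narrowly. APAP gave a Slc1a2 difference of 0.37 in wild-type livers, 0.30 in liver-null livers and 0.33 over both genotypes (95% interval -0.10 to 0.77). Without wild-type saline 8 the wild-type value was 0.07 and the value over both genotypes 0.19, without wild-type saline 9 they were 0.70 and 0.50, and without liver-null APAP 3 the liver-null value was 0.05. With array weights the wild-type value was -0.04.

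The brightest Slc1a4 probe set, 1456003_a_at, averaged 3.67 ± 0.33 with saline and 3.81 ± 0.21 with APAP in wild-type livers, and 3.58 ± 0.33 and 3.49 ± 0.17 in the same order in liver-null livers (SD, n = 3 each), and all groups overlapped. Its largest difference was -0.32 between genotypes after APAP (95% interval -0.77 to 0.12, limma adjusted p 0.758). The other 2 probe sets of Slc1a4 read 2.42 to 2.76 and 1.26 to 1.74 over the 12 arrays, below the array medians of 2.91 to 2.99.

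The 7 genes differed widely in how much they varied between livers. The SD over the 12 arrays was 0.09 for Oat and Cps1 and 0.11 for Arg1, at percentiles 3.22, 3.90 and 8.60 of all tested genes. Glul and Slc1a4 had SDs of 0.27 and 0.26, Hal 0.34 and Slc1a2 0.38, the last 2 at percentiles 82.4 and 87.5. For the 3 steady enzymes the 95% intervals were narrow: those of Oat, Cps1 and Arg1 reached no further than 0.39 in saline (a 1.31-fold difference) and 0.40 after APAP (1.32-fold) between genotypes. For APAP they reached no further than 0.40 in wild-type livers, 0.33 in liver-null livers and 0.26 over both genotypes, and for the interaction they reached 0.50 (1.41-fold). For Hal the interval in saline reached -1.09, and for Slc1a2 in wild-type livers the APAP interval reached 0.98, so differences of that size were not excluded by these arrays. The plot of differences with intervals sets the 7 genes side by side.

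**Figure D2:**
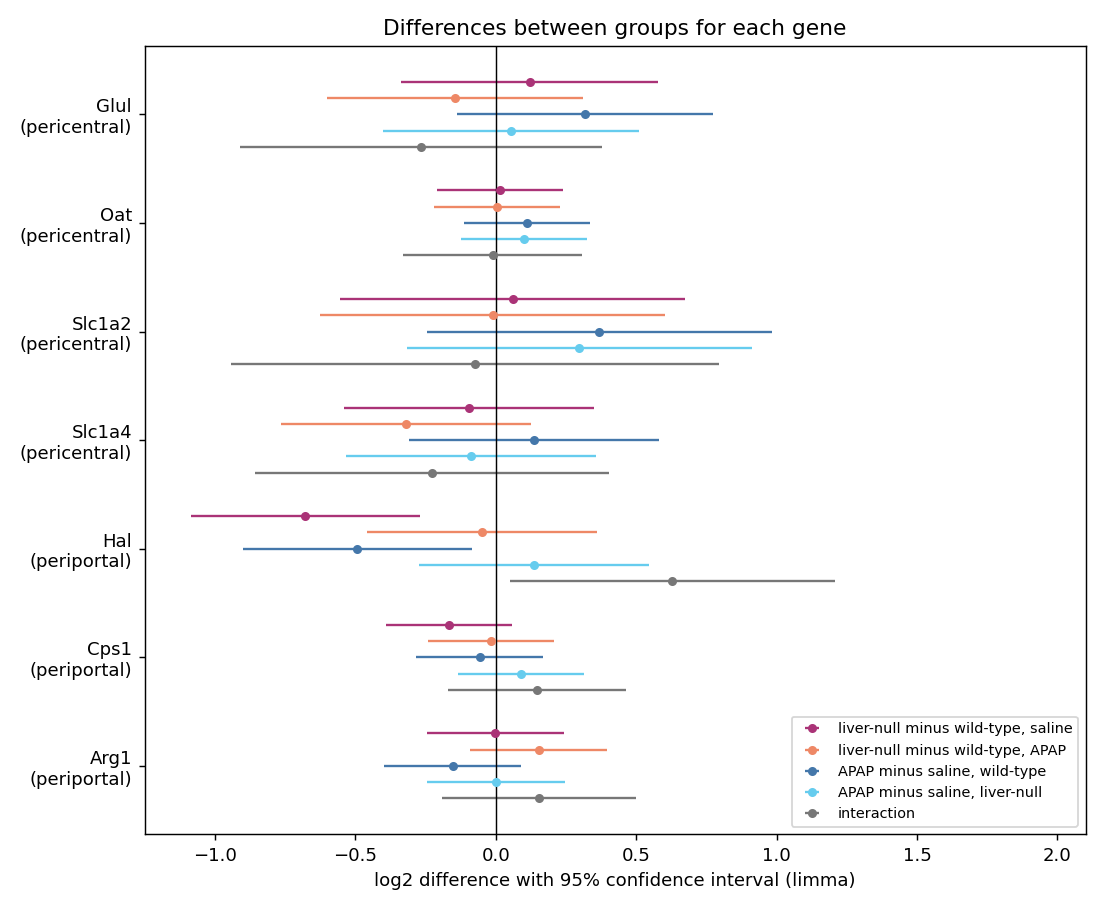
Fitted log2 difference (horizontal axis) and 95% confidence interval from limma for each gene, with 1 line per comparison, for 5 comparisons. The Hal intervals for genotype in saline (-1.09 to -0.27), APAP in wild-type (-0.90 to -0.08) and the interaction (0.05 to 1.21) leave out 0, before any adjustment over genes, and all intervals of the other 6 genes cross it.

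To set the 2 zones against each other in single livers, each gene was centred on its mean of 12 arrays, and the mean of the 3 periportal genes was subtracted from that of the 4 pericentral genes. This zone difference was -0.75, -0.06 and -0.01 in wild-type saline livers 8, 9 and 10, and 0.28, 0.04 and 0.26 in wild-type APAP livers 12, 13 and 14. It was -0.13, 0.15 and 0.07 in liver-null saline livers 4, 5 and 16, and -0.16, 0.20 and 0.10 in liver-null APAP livers 2, 3 and 17. Liver 8 lay far from the others, and the means were -0.27 ± 0.41, 0.19 ± 0.13, 0.03 ± 0.14 and 0.05 ± 0.18 (SD, n = 3 each) in the order of groups just given. Without liver 8 the wild-type saline mean was -0.04. The 2 genotypes overlapped under both treatments, as did saline and APAP in liver-null livers. In wild-type livers the 3 APAP values lay above the 3 saline values, narrowly so for liver 13 at 0.04 over liver 10 at -0.01. Liver 8 held the lowest saline value, so leaving it out could not change that order. The order did depend on Slc1a2, which reads low: its centred value was -0.28 in liver 10 and 0.21 in liver 13. Slc1a4, which also reads low, went the other way, at 0.39 and 0.10. Without Slc1a2 liver 10 would lie above liver 13, so the 2 wild-type groups would overlap. The zone differences were given no test. The plot of centred values by liver shows wider spread for Slc1a2, Hal, Glul and Slc1a4 than for Arg1, Cps1 and Oat.

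**Figure D3:**
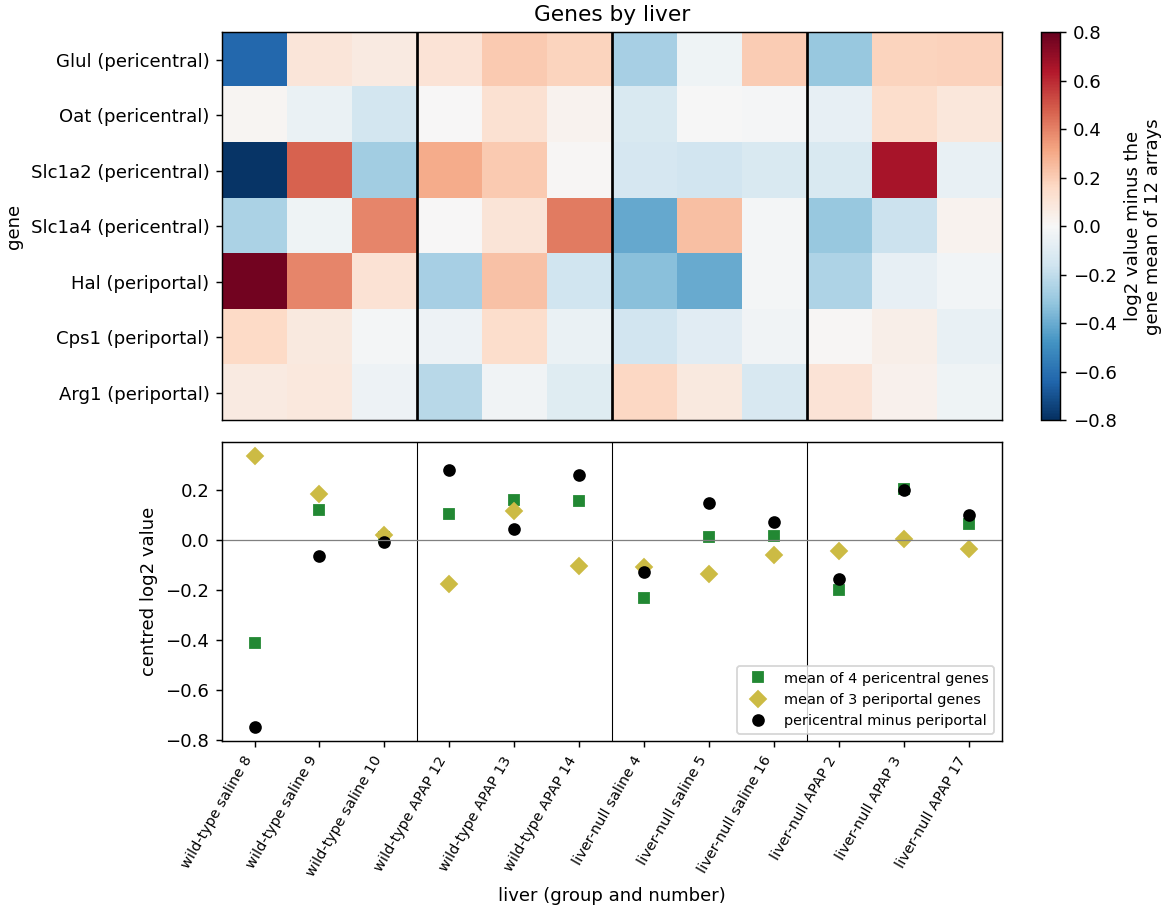
Top, log2 value minus the gene's mean of 12 arrays for the 7 genes (one line each) in the 12 livers (columns, in groups of 3), on a colour scale from -0.8 to 0.8. Bottom, the mean of the pericentral genes, the mean of the periportal genes and their difference in each liver. Wild-type saline 8 stands out with a zone difference of -0.75, from low Glul (-0.63) and Slc1a2 (-0.79) and high Hal (0.77).

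The other measured genes of the urea cycle and its carriers gave the setting for Cps1 and Arg1. These were Otc, Asl, Nags and the mitochondrial carriers Slc25a15 and Slc25a13. With Cps1 and Arg1 they made 7 tested genes, of which 0 were called by limma in any comparison. At an unadjusted p under 0.05, 1 of the 7 was counted for genotype in saline (12.2% of all genes) and 1 over both treatments (17%). Slc25a15, which brings ornithine into the mitochondrion, read 10.63, 10.57 and 10.55 in wild-type saline livers against 10.07, 10.20 and 10.29 in liver-null ones, a difference of -0.40 with an adjusted p of 0.145 by limma. Asl, argininosuccinate lyase, lay at the other end with 0.14 in saline. In saline, 1 of the 7 differences was positive, with a median of -0.17 beside -0.03 for all genes, of which 44.8% were positive. In the interaction 7 of 7 were positive, with a median of 0.15 beside 0.03 for all genes, of which 56.8% were positive. The largest of these was Nags at 0.40, the enzyme that makes the activator of Cps1, and none of the interactions was called.

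Hal and Oat also belong to a wider list of amino acid breakdown enzymes, of which 29 of 35 were tested. None of the 29 was called by limma for genotype in saline, genotype after APAP, APAP in either genotype or the interaction. At an unadjusted p under 0.05 the counts in that order were 7 (12.2% of all genes), 4 (9.02%), 4 in wild-type livers (1.69%), 0 in liver-null livers (0.697%) and 4 (1.29%). With the array set as covariate Agxt was called in saline (-0.86, adjusted p 0.0564 without and 0.0323 with it, by limma) and Bckdhb after APAP (0.47, adjusted p 0.172 and 0.0434). That fit called 2.87% of all genes in saline and 2.18% after APAP. Array weights called 7 of the 29 in saline, beside 1323 of all 8469 genes. For APAP in wild-type livers 24 of the 29 differences were negative, with a median of -0.11 beside -0.02 for all genes, of which 45% were positive. In liver-null livers 23 of 29 were positive (55.9% of all genes), with a median of 0.07 beside 0.02. Of the interactions 26 of 29 were positive (56.8% of all genes), with a median of 0.18 beside 0.03. Without wild-type saline 8 the same counts were 23 negative, 23 positive and 26 positive, and the interaction median was 0.17. Over all alternatives the median for APAP in wild-type livers ranged from -0.21 to -0.07 and that of the interaction from 0.12 to 0.27, and array weights left 19 of 29 negative for APAP in wild-type livers. The wild-type count and the interaction count rest on the same wild-type livers, and genes of a list are not independent replicates. The plot of this list shows Hal near the lower end for APAP in wild-type livers.

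**Figure D4:**
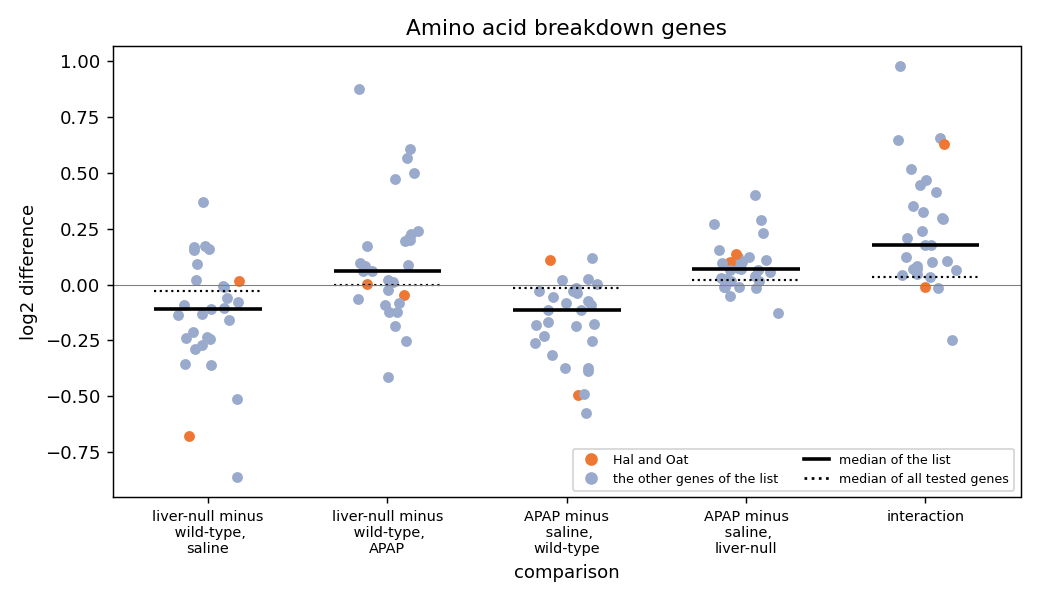
Log2 difference (vertical axis) of the 29 tested amino acid breakdown genes in 5 comparisons, 1 point per gene, with Hal and Oat in orange, the median of the list as a solid line and that of all tested genes as a dotted line. The list median is -0.11 for APAP in wild-type livers, 0.07 for APAP in liver-null livers and 0.18 for the interaction.

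Over both treatments 2 of the 29 breakdown genes were called, beside 4.46% of all genes. Agxt, which encodes the peroxisomal enzyme that turns glyoxylate into glycine, was lower in liver-null livers by 1.55-fold (log2 difference -0.64, adjusted p 0.0164 by limma). It read 10.92, 10.17 and 10.23 in wild-type saline livers, 9.91, 10.17 and 10.12 in wild-type APAP livers and 9.48 to 9.74 in all 6 liver-null livers, with no overlap. Bckdhb, a subunit of the complex that breaks down branched-chain amino acids, was higher in liver-null livers by 1.34-fold (0.42, adjusted p 0.0254 by limma), a call lost in 7 of 20 alternatives, each of which left out 1 array.

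Among transporters, the ammonium transporter Rhbg, which is expressed in the same pericentral hepatocytes as Glul, was higher in liver-null livers while Glul was not called. Rhbg read 3.83, 4.61 and 4.14 in wild-type saline livers and 4.39, 4.27 and 4.31 after APAP. In liver-null livers it read 5.49, 5.70 and 5.74 after saline and 5.38, 5.53 and 5.43 after APAP. All 6 liver-null livers lay above all 6 wild-type livers. The wild-type values and most liver-null values lay under the upper quartile of their array (5.49 to 5.85 over the arrays). They therefore say less about the size of the fold changes. The difference in saline was 1.45 (2.73-fold, SE 0.17, adjusted p 0.00573 by limma) and after APAP 1.12 (2.18-fold, adjusted p 0.0103 by limma). The saline call was lost when the fit held the 2 saline groups alone (adjusted p 0.0549), and the call after APAP without wild-type APAP 13, liver-null APAP 2 or liver-null APAP 3 (adjusted p 0.0522 to 0.0563). Over both treatments Rhbg differed by 1.29 (2.44-fold), with an adjusted p of 0.000243 by limma and of at most 0.00141 under the 20 alternatives, and by 1.25 and 1.36 within the 2 array sets. Rhbg was the 1 gene called of 11 tested amino acid and ammonium transporters in each of the 3 genotype comparisons (0.638% of all genes in saline, 0.768% after APAP and 4.46% over both treatments). Array weights called 2 higher and 1 lower of the 11 in saline, beside 1323 of all 8469 genes. APAP called 0 of 11 in either genotype (0 at an unadjusted p under 0.05). Of 10 tested amino acid synthesis genes, Glul and Oat among them, 0 were called by limma in any comparison. At an unadjusted p under 0.05, 2 were counted for genotype in saline (12.2% of all genes) and 0 for APAP in either genotype. With the array set as covariate 2 of the 10 were called over both treatments, beside 10.4% of all genes. Both were higher in liver-null livers and named after their values were seen: Asns, which makes asparagine (2.35, adjusted p 0.0701 without and 0.0426 with the covariate, by limma), and Psat1, an enzyme of serine synthesis (0.88, adjusted p 0.0657 and 0.0271). Array weights called 3 of the 10 in that comparison, beside 1409 of all 8469 genes. The fit without wild-type saline 8 called 1, beside 208 of all genes.

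Of 24 tested pericentral genes other than the 4 above, 5 were called over both treatments, beside 4.46% of all genes. These were Rhbg, higher in liver-null livers, and 4 genes outside nitrogen handling, all lower. The vasopressin receptor Avpr1a differed by -1.07 (adjusted p 0.00331 by limma), reading 3.42 to 4.03 in the 6 wild-type livers and 2.35 to 3.04 in the 6 liver-null livers. The liver-null values lay around the array medians of 2.91 to 2.99, so they say less about the fold change. The secreted protein Lect2 differed by -0.73 (1.66-fold, adjusted p 0.0091 by limma) and Gulo, the last enzyme of vitamin C synthesis, by -0.55 (adjusted p 0.0188 by limma). Gulo and Lhpp, at -0.46, were named after their values were seen, and the Lhpp call was lost in 8 of 20 alternatives that left out 1 array each. Gulo lost its call in 2 of 20. For APAP 0 of 24 were called by limma in either genotype. At an unadjusted p under 0.05, 1 was counted in wild-type livers (1.69% of all genes) and 0 in liver-null livers (0.697%).

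Of 21 tested periportal genes outside the 7, 2 were called over both treatments, beside 4.46% of all genes. Fads1, a fatty acid desaturase, was lower in liver-null livers by 1.76-fold (-0.81, adjusted p 0.000827 by limma), and Rida, which clears reactive imines formed in amino acid breakdown, was higher by 1.32-fold (0.41, adjusted p 0.0355 by limma), a call lost in 9 of 20 alternatives. In saline Fads1 alone was called, at -1.01, beside 0.638% of all genes, and that call was lost without wild-type saline 8, without wild-type saline 9 and when the fit held the 2 saline groups alone (adjusted p 0.0514 to 0.058 by limma). Genes of both zones were thus called in both directions, and the 7 measured nitrogen genes were called in neither.

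For the 3 genes that varied most over the 12 arrays, the genes with the most similar pattern were found by Pearson correlation over the 12 arrays, which share groups and array sets. For Hal these were Pxmp2 (r = 0.96), Cox7a1 (0.96) and Cluh (0.93). For Glul they were Rad21 (0.94), Golph3 (0.92) and Ppp1cb (0.91), and for Slc1a2 Herc1 (0.85), Tenm3 (0.83) and Tbc1d24 (0.83). These are the 3 highest among all other tested genes in each case and are given as a description.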

How the data were processed

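Liver RNA of 12 mice was measured on Affymetrix arrays with 22690 probe sets. The authors deposited log2 values of each probe set, computed with RMA (background correction, normalization and probe summary), per the submitters' processing notes. Neither its version nor its set of arrays is given in the sources used here. RMA compresses low values, so differences of dim genes can be understated. Precision is limited by the 3 arrays in a group.

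Gene symbols are those of the platform annotation, which can be old: 20380 have 1 symbol, 691 several and 1555 none listed, besides 64 controls. Each gene was read from its brightest probe set on average among those with 1 symbol, and tested where above the array's 40th percentile on at least 3 of 12 arrays (8469 genes; 3924 filtered out). Differences were fitted with limma 3.58.1 in R 4.3.3 (4 group means over 12 arrays, 8 residual and 3.43 prior degrees of freedom, eBayes, Benjamini-Hochberg over all tested genes, two-sided) and tested on simulated data. Groups came from sample titles. Nothing beyond the titles' numbers and the design's mention of biological replicates says that livers were independent. Array sets were split at the largest gap in upper quartile.

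The genes and lists were chosen with earlier results of these data known. Named genes outside the 7 were Txnrd1, up to 3 called genes of a list per comparison with the largest difference, and the 3 genes most correlated with each of the 3 most variable genes. Gulo, Lhpp, Cela1, Prss2, Asns, Psat1 and the other urea cycle genes were named outside this rule, after their values were seen. Alternatives were quantile normalization, median subtraction, no filter and a filter at the 60th percentile, mean of probe sets, the array set as covariate, only the groups compared, array weights, a trended robust prior and leaving out each array. For the zone difference each of the 7 genes was also left out in turn. List counts and zone differences without wild-type saline 8 were added after seeing the data. Coordinates and sequences are from RefSeq, GRCm38.p6.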

Additional observations from a re-analysis of the deposited data

How the results depend on the processing

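The measured genes stayed uncalled in nearly all alternatives: of 1008 recomputed differences (49 differences, up to 21 alternatives), 2 were called, both for Hal with array weights, which made the count of called genes of the 7 equal to 1 in saline and 1 over both treatments. Signs changed in 68 of the 1008, 63 of them where the difference was under 0.1 in size, and 6 of the changes moved the value by more than 1 SE, 4 of them for Slc1a2 or Slc1a4 with array weights. The count of all genes called for genotype in saline was 54 and became 104 with quantile normalization, 243 with the array set as covariate, 19 with only the groups compared, 1323 with array weights and 121 with a trended robust prior. It ranged from 10 (without wild-type saline 8) to 92 (without wild-type saline 10) when arrays were left out. For genotype after APAP, 65 became 185 with the array set, 39 with only the groups compared, 210 with array weights, 98 with the trended prior and 21 to 60 with an array left out. Over both treatments, 378 became 590 with quantile normalization, 882 with the array set, 1409 with array weights and 208 to 416 with an array left out. For APAP over both genotypes the count was 0 and became 1 without liver-null APAP 17, with a range of 0 to 1. The causes were not tested. Across these alternatives the called genes of the 29 for amino acid breakdown ranged from 0 to 7 in saline and 1 to 8 over both treatments, those of the 24 pericentral genes from 0 to 10 and 3 to 10, and those of the 21 periportal genes from 0 to 6 and 1 to 6, with the highest counts under array weights, which also called 2 of the 7 urea cycle genes in saline and 1 over both treatments. Group means of the zone difference stayed within 1 SD in 9 alternatives, between -0.35 and -0.15 in wild-type saline and 0.16 and 0.23 in wild-type APAP. These 9 were the mean of probe sets, quantile normalization and leaving out each of the 7 genes. All of them kept wild-type saline 8, which also widens the SD of its group. Without that liver the wild-type saline mean was -0.04, outside the range given. Slc1a2 and Slc1a4 read too near the array median for small differences to be resolved. No paired analysis was possible because no replicate number in the titles is shared between groups.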

Other observations

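Regulators of zonation were examined as a list of Wnt ligands, receptors and transcription factors, of which 18 of 23 were tested. Rnf43, which removes Wnt receptors from the cell surface, was called lower in liver-null livers after APAP (log2 difference -0.67, 1.59-fold, adjusted p 0.0429 by limma) and over both treatments (-0.55, 1.47-fold, adjusted p 0.00647 by limma). Of all genes, 0.768% and 4.46% were called in these 2 comparisons. Rnf43 read 3.69 to 3.96 after saline and 4.03 to 4.13 after APAP in wild-type livers, against 3.23 to 3.45 and 3.19 to 3.57 in liver-null livers. These values lie under the upper quartiles of the arrays, 5.49 to 5.85, like those of Slc1a2 and Slc1a4. They therefore say less about fold changes. The call after APAP was lost in 14 of 21 alternatives, with adjusted p from 0.0523 to 0.194, and the call over both treatments was lost in 0 of 20. No other gene of the list was called in any comparison by limma. At an unadjusted p under 0.05, 4 of 18 were counted for genotype in saline (12.2% of all genes) and 2 for APAP in wild-type livers (1.69%).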
